A study of Mus musculus with 36 samples.

Results

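The 8 genes described here encode sugar-binding recognition molecules of the lectin pathway of complement, their proteases and a membrane-bound relative. They were chosen by name (Fcna, Colec10, Colec11, Colec12, Mbl1, Mbl2, Masp1 and Masp2), and all 8 were found among the 24421 gene symbols counted in each of 36 RNA-seq libraries of mouse liver cells. The libraries came from hepatic stellate cells (HSCs, the vitamin A-storing cells around the liver capillaries), liver sinusoidal endothelial cells (LSECs, which line those capillaries) and hepatocytes, all of C57BL/6 mice. For each cell type there were 4 libraries from a group named WT, which the series describes as mice given PBS, and 4 each taken 12 h and 36 h after diphtheria toxin was injected. The labels give no genotype, age or sex, and no group analysed here holds mice in which the toxin could not remove Kupffer cells, the resident liver macrophages that the study depletes. An effect of the toxin and an effect of the depletion therefore cannot be told apart. Nothing in the labels ties a library to a single mouse, so p-values measure the spread between libraries, which may be technical in part.

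In the lectin pathway, soluble lectins with collagen-like stalks bind sugars or acetylated groups on microbes and dying cells and carry serine proteases to that surface. The protease encoded by Masp1 activates itself and then the one encoded by Masp2, which cleaves complement C4 and C2 and so leads to the cleavage of C3. The liver is the classic source of these plasma proteins. Mannose-binding lectins and the Masp2 protease are known as hepatocyte products, while ficolin A is known from liver and spleen and is often attributed to macrophages.

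The recognition molecules of this pathway are the ficolin Fcna, the mannose-binding lectins Mbl1 and Mbl2, and the collectins Colec10 and Colec11. Colec12 differs from them in kind: it encodes a scavenger receptor with a collagen-like stalk and a lectin domain that stays in the membrane. Masp1 also encodes, by alternative splicing, a further protease and a protein without protease activity, and Masp2 likewise encodes a truncated form. The files count reads per gene, so these products were not separated here.

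In GRCm38 with GENCODE M21, Fcna lies on chromosome 2 from 25624666 to 25628030, Colec10 on chromosome 15 from 54410774 to 54466358 and Colec11 on chromosome 12 from 28594173 to 28623377. Mbl1 lies on chromosome 14 from 41151458 to 41159601 and Mbl2 on chromosome 19 from 30232942 to 30239687. Masp1 lies on chromosome 16 from 23449417 to 23520815 and Masp2 on chromosome 4 from 148602554 to 148615499. All 8 are protein-coding. The exons of Masp2 share 1742 bases with Tardbp on the opposite strand, and those of Fcna share 51 bases with the antisense gene Fcnaos. Whether the authors counted by strand is not given in the sources used here, so reads of these partners could not be told apart.

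RefSeq promoter windows (GRCm38.p6) were at hand for 5 of the 8 genes, and 4 are shown because they belong to genes at opposite ends of the distribution described next: Colec11 and Fcna were almost confined to HSC libraries, Mbl1 and Mbl2 to hepatocyte libraries. Each is the stretch of up to 250 bases before the RefSeq start that lies outside GENCODE exons, read 5′ to 3′ on the gene's strand. Capitals mark the letters AGATAA, the core of a GATA site, in Colec11 and the longest run of letters that Mbl1 and Mbl2 share. The positions are chr12:28623378-28623580 (minus strand), chr2:25628031-25628224 (minus strand), chr14:41151206-41151455 (plus strand) and chr19:30232678-30232927 (plus strand).
Colec11: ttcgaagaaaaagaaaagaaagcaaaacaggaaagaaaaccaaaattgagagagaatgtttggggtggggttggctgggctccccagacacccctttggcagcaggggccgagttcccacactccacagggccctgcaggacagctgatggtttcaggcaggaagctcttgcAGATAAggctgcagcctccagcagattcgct
Fcna: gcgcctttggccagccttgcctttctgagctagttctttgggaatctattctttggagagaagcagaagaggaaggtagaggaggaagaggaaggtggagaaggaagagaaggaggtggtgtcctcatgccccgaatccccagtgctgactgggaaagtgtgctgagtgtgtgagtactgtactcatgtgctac
Mbl1: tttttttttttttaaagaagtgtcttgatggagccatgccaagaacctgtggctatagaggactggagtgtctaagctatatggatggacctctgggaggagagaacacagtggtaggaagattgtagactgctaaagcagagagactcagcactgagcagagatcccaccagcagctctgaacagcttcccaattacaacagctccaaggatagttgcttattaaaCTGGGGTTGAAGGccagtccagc
Mbl2: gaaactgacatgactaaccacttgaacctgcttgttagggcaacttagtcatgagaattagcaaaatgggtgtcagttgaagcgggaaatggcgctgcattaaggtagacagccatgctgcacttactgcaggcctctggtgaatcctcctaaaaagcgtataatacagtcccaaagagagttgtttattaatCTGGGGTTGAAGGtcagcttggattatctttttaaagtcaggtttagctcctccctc

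The Mbl1 and Mbl2 windows shared the 13 letters CTGGGGTTGAAGG, which began 23 bases before the start in Mbl1 and 57 bases before it in Mbl2. On either strand, 3 of all 32851 promoter windows (0.00913%) held this run. It was found by comparing those windows with each other. AGATAA began 78 bases before the start in Colec11 and stood in 9.99% of all windows. Mbl2 held it on the minus strand, and TGTTTA, the core of a forkhead site (12% of windows), 68 bases before its start. Of the other letters searched on both strands, TTCNNNGAA (STAT, 7.02% of windows) was found in the 250-base windows of Colec11 and Masp2, at 250 and 53 bases before the start. GTTAAT (part of an HNF1 site, 6.43%), TTGCNNAA (C/EBP, 9.56%) and the NF-kB motif (0.356%) were found in none of the 5 windows. The Fcna window held none of the 6 motifs. These are matches of letters only, and the motifs were chosen with the levels of the genes known.

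Totals per library lay between 25404719 and 31734631 gene counts. Levels are given as CPM, counts scaled to a library of 1000000, on TMM scaling over all 36 libraries. The labelled cell types carried their own markers: the summed level of 8 stellate markers (such as Lrat and Reln) was 32717 to 71460.3 CPM in HSC libraries, 254 to 663 in LSECs and 0.0983 to 2.79 in hepatocytes. The 8 endothelial markers summed to 13951 to 21841 CPM in LSECs, 89.7 to 173 in HSCs and 6.34 to 16.2 in hepatocytes. The 8 hepatocyte markers summed to 62784 to 116961 CPM in hepatocytes, 160.5 to 444 in HSCs and 31.6 to 311 in LSECs. Sums of 8 Kupffer cell markers were 2.72 to 14.8, 10.2 to 22.9 and 2 to 26.2 CPM in WT libraries of the 3 types, and 0.29 to 2.29, 1.64 to 4.41 and 0 to 0.55 at 12 h. At 36 h these sums were 0.582 to 12.8, 0.893 to 14.8 and 0.461 to 1.84 CPM. Markers of monocytes and neutrophils summed to at most 18.4 CPM and those of cholangiocytes to at most 30.8 CPM in any library. The platelet and erythroid list reached 299.5 CPM in HSCs, nearly all of it Itga2b, with Hba-a1 at 0 in every library.

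In WT libraries the genes fell into 4 patterns. Colec10, Colec11 and Fcna were almost confined to HSC libraries, and Mbl1, Mbl2 and Masp2 to hepatocyte libraries. Masp1 was found in all 3 cell types with the highest level in HSCs, and Colec12 in all 3 with the highest level in hepatocytes. An adjusted p under 0.05 in edgeR's quasi-likelihood test counts as a call. All 8 members were called in each of the 3 comparisons of WT cell types, in which 56.8% (HSC and LSEC), 79.1% (HSC and hepatocyte) and 79% (LSEC and hepatocyte) of all tested genes were called as well. Between HSCs and LSECs, Mbl1, Mbl2 and Masp2 were called higher in HSCs on means of at most 2.04 CPM. The part of hepatocyte RNA in those calls was not tested. The call of Fcna between LSECs and hepatocytes (log2 difference 1.25 ± 0.53 SE, adjusted p = 0.0449) was lost without LSEC replicate 2, 3 or 4 or hepatocyte replicate 1, 3 or 4 (adjusted p 0.057 to 0.113) and in the fit of all 36 libraries (0.0834).

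**Figure D1:**
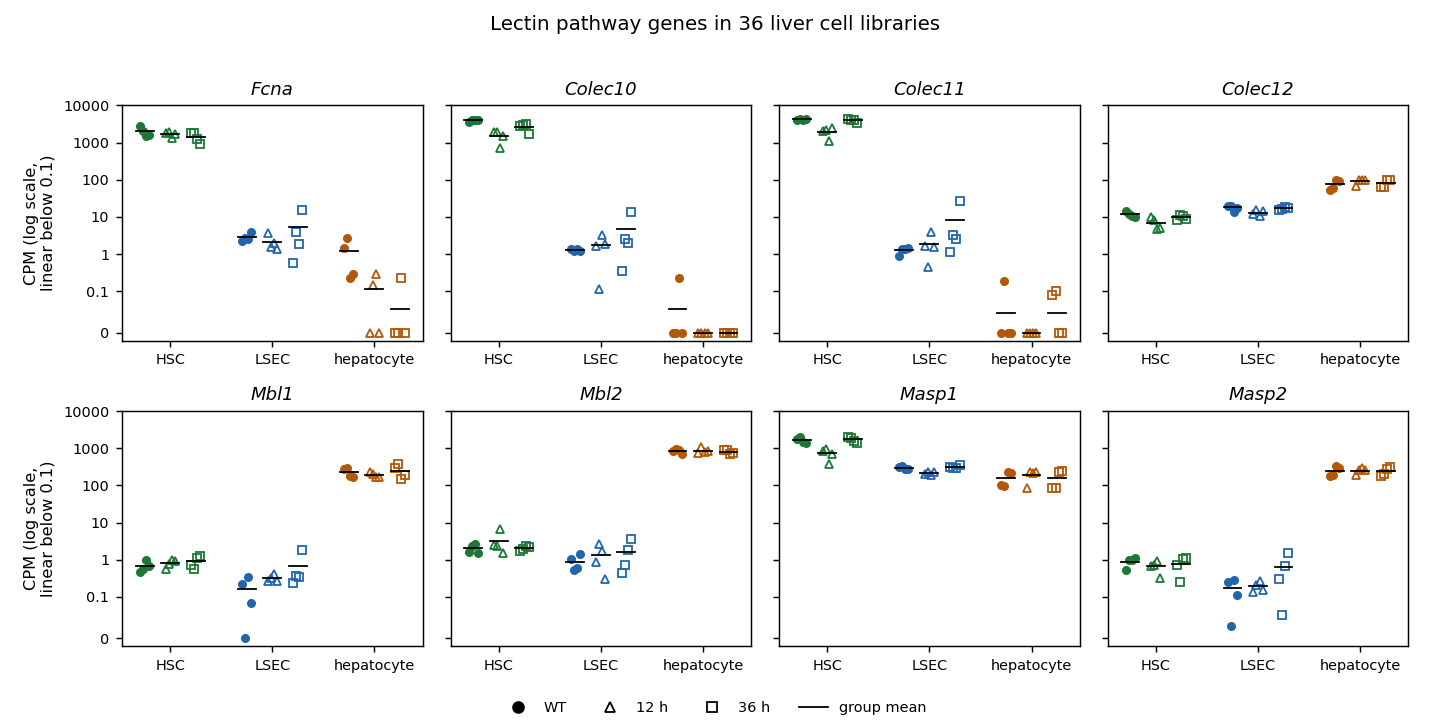
Level of each of the 8 genes in all 36 libraries, in CPM on a log axis that is linear below 0.1; points are libraries, filled for WT and open for 12 h (triangles) and 36 h (squares), and bars are means of 4 libraries. Colec10 and Colec11 stood at 727 CPM or more in every HSC library and at 27.1 CPM or less in every other library, while Mbl1, Mbl2 and Masp2 stood at 149.8 CPM or more in hepatocyte libraries and at 6.76 or less elsewhere.

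Colec11, which encodes a collectin that binds sugars such as fucose and mannose, had the highest level per length of the 8 genes. Its 4 WT HSC libraries held 4009, 4443, 4176 and 4264 CPM (4223 ± 181, SD, n = 4). The WT LSEC libraries held 0.896, 1.37, 1.35 and 1.44 CPM. In the WT hepatocyte libraries 4 counts were found in all, in 1 library, against 553438 counts in the WT HSC libraries. HSC and LSEC levels differed 3295-fold (log2 difference 11.69 ± 0.45 SE, adjusted p = 8.31e-11). Per kilobase of annotated exon, Colec11 reached 2605 ± 111 CPM per kb in WT HSCs.

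Colec10, which encodes the partner with which the Colec11 product forms mixed oligomers in plasma, was almost as high in counts. The WT HSC libraries held 3623, 4059.8, 4041 and 4047 CPM, and the WT LSEC libraries 1.37, 1.21, 1.38 and 1.22 CPM. All but replicate 1 of the HSC libraries lay between 4041 and 4059.8 CPM. WT hepatocyte libraries held 4 counts in all. Because its annotated exons are longer, Colec10 stood at 859.5 ± 46.5 CPM per kb, below Colec11 and below Fcna on that scale. The difference between HSCs and LSECs was 2999-fold (log2 difference 11.55 ± 0.44 SE, adjusted p = 8.35e-11).

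Fcna, the ficolin, varied more between WT HSC libraries than the collectins, with 2878, 2006, 1476 and 1625 CPM (1996 ± 629, SD, n = 4; 1453 CPM per kb). Replicate 1 was the highest. WT LSEC libraries held 2.24 to 4.02 CPM and WT hepatocyte libraries 0.228 to 2.74 CPM. The HSC level was 684-fold above that of LSECs (log2 difference 9.42 ± 0.65 SE, adjusted p = 2e-08). Kupffer cell markers were near 0 in the same HSC libraries: their sum did not exceed 14.8 CPM, and Clec4f, the defining Kupffer cell lectin, stood at 0.534 CPM in WT and had no count in the 4 HSC libraries at 12 h, where Fcna stood at 1692 CPM. Which cells gave the Fcna reads was not tested.

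Mbl1 and Mbl2, the mannose-binding lectins, were hepatocyte genes with a count in nearly every other library. Mbl2 held 869.5, 929, 903 and 702 CPM in WT hepatocyte libraries and Mbl1 279, 301, 177 and 168 CPM. Per kb this came to 781 ± 93.7 and 147 ± 43.7 CPM per kb, so Mbl2 was the higher of the pair in every library. In WT HSCs their means were 2.04 and 0.673 CPM and in WT LSECs 0.892 and 0.162 CPM. Masp2, the protease that cleaves C4 and C2, held 182, 195, 324 and 289 CPM in WT hepatocytes (74.9 CPM per kb), 0.895 in HSCs and 0.17 in LSECs. The log2 differences between HSCs and hepatocytes were -8.46 ± 0.40 for Mbl1, -8.74 ± 0.33 for Mbl2 and -8.14 ± 0.34 for Masp2 (SE; adjusted p at most 1.64e-10).

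The low counts of these 3 genes outside hepatocytes stood in a ratio to albumin of the same order as in hepatocyte libraries. Mbl2 had 18.6 counts per 1000 counts of Alb in WT hepatocyte libraries, 12.3 in WT HSC and 14.8 in WT LSEC libraries. For Masp2 the values were 5.33, 5.46 and 2.91, and for Mbl1 5.14, 4.06 and 2.79. The part of hepatocyte RNA in these counts was not tested. Colec12 was different: it had 1.65 counts per 1000 counts of Alb in WT hepatocyte libraries, 72.1 in WT HSC and 297 in WT LSEC libraries.

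The same comparison against Lrat, the retinol-esterifying enzyme that marks stellate cells, separated the genes highest in HSCs. Colec10 had 1.34 counts per Lrat count in WT HSC and 1.38 in WT LSEC libraries, and Colec11 1.44 and 1.34, so in LSECs both stood close to the ratio to Lrat of the HSC libraries. Fcna had 0.685 counts per Lrat count in WT HSC but 3.07 in WT LSEC libraries, whose Kupffer cell markers summed to 10.2 to 22.9 CPM; the part of either cell type in this RNA was not tested. Masp1 had 0.565 counts per Lrat count in WT HSC and 315 in WT LSEC libraries.

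**Figure D2:**
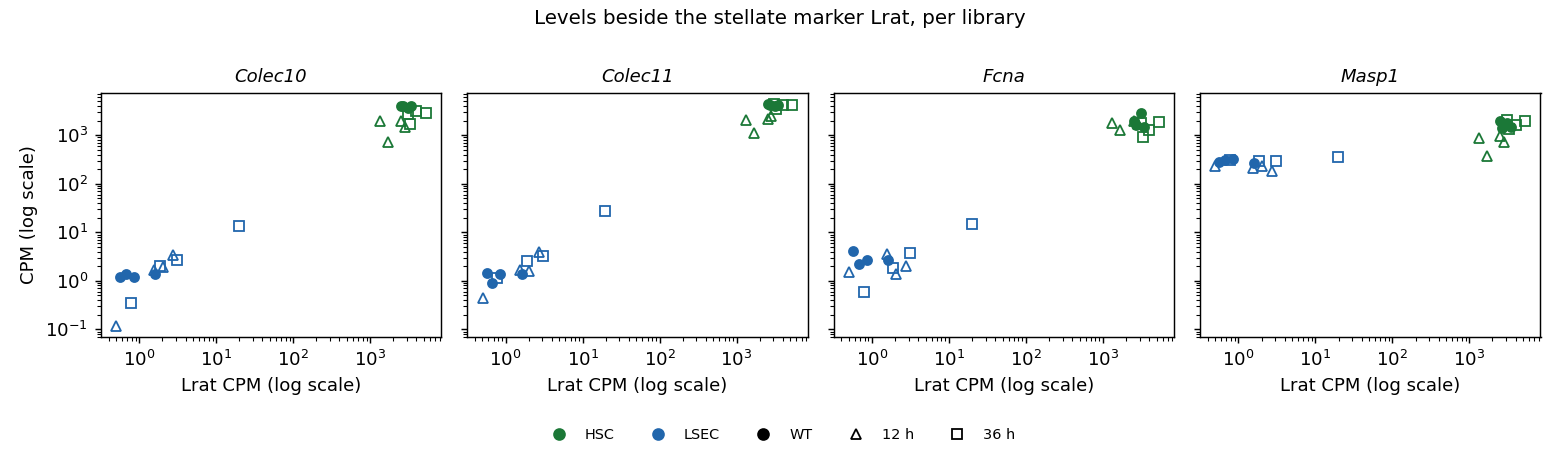
Levels of Colec10, Colec11, Fcna and Masp1 (y axes) beside Lrat (x axes), both in CPM on log axes, with 1 point per HSC library (green) and LSEC library (blue), filled for WT and open for 12 h (triangles) and 36 h (squares). Every HSC library is above every LSEC library in Lrat, Colec10 and Colec11, and the LSEC library with the highest Lrat (19.6 CPM) has the highest Colec11 (27.1 CPM), whereas Masp1 stands between 185 and 348 CPM in every LSEC library.

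Masp1, the protease that starts the activation of the pathway, was the one member at 83.5 CPM or more in every library of all 3 cell types. WT HSC libraries held 1801, 1965, 1452 and 1416 CPM, WT LSEC libraries 307, 326, 270.2 and 284 CPM and WT hepatocyte libraries 101, 93.9, 228 and 216 CPM. The HSC libraries did not overlap with either of the other types, nor did LSECs with hepatocytes. HSCs were 5.53-fold above LSECs (log2 difference 2.47 ± 0.29 SE, adjusted p = 5.21e-06) and 10.2-fold above hepatocytes (log2 difference 3.35 ± 0.30 SE, adjusted p = 1.39e-07). LSECs were 1.85-fold above hepatocytes (log2 difference 0.88 ± 0.28 SE, adjusted p = 0.00942). The distance from hepatocytes depends on scaling: the median log2 difference of all genes moved from 0.18 to 1.01 for LSECs and to 0.86 for HSCs when libraries were scaled by their totals only, and that of Masp1 for LSECs from 0.88 to 1.75.

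Colec12, the membrane scavenger receptor, had the opposite order. WT hepatocyte libraries held 53.2, 61, 96.8 and 94.5 CPM, WT LSEC libraries 20.2, 20.3, 13.9 and 17.9 CPM and WT HSC libraries 14.7, 11.9, 10.3 and 10.1 CPM. Hepatocytes did not overlap with the other types, while HSCs and LSECs did. Hepatocytes were 4.27-fold above LSECs and 6.62-fold above HSCs (log2 -2.09 ± 0.21 and -2.73 ± 0.22 SE for the other type against hepatocytes, adjusted p = 5.57e-07 and 4.46e-08). As for Masp1, the size of these distances depends on scaling. Over the other settings, scaling by totals only among them, the log2 values ran from -2.15 to -1.24 for LSECs. For HSCs they ran from -2.74 to -2.02, and both stayed called. HSCs were lower than LSECs (log2 difference -0.63 ± 0.21 SE, adjusted p = 0.0195), a call that was lost when HSC replicate 3 or 4, or LSEC replicate 1 or 2, was left out (adjusted p 0.0507 to 0.0582).

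At 12 h after the toxin, both collectin genes, Masp1 and Colec12 fell in HSCs. In these bulk samples, fewer cells of a type and less RNA per cell cannot be told apart. Against WT, these 4 of the 8 genes fell and none rose. Among all 12676 genes tested 15.1% fell and 17% rose. In the same 4 genes the 12 h libraries all lay below the WT libraries, as in 16% of all genes. The median log2 fold change of the 8 genes was -0.56, beside 0.01 for all genes.

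Colec10 held 1943, 1973, 727 and 1484 CPM at 12 h, against 3623 to 4059.8 in WT. Every 12 h library was below the lowest WT library, and replicate 3 was the lowest. The fall was 2.53-fold (log2 difference -1.34 ± 0.27 SE, adjusted p = 0.00235). Colec11 held 2089, 2192, 1118 and 2551 CPM, against 4009 to 4443 in WT, again with replicate 3 lowest and no overlap. It fell 2.09-fold (log2 difference -1.07 ± 0.20 SE, adjusted p = 0.00147).

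Masp1 held 866, 959.9, 380.1 and 717 CPM at 12 h, against 1416 to 1965 in WT, and fell 2.23-fold (log2 difference -1.16 ± 0.24 SE, adjusted p = 0.00292). Colec12 held 9.89, 8.2, 4.67 and 5.12 CPM, against 10.1 to 14.7 in WT (log2 difference -0.73 ± 0.23 SE, adjusted p = 0.0277). Its call was lost without WT replicate 1 or 2 or 12 h replicate 3 or 4 (adjusted p 0.0534 to 0.0894), and with only the 2 groups in the fit (adjusted p = 0.0503). Those of Colec10, Colec11 and Masp1 remained with each library left out in turn, with log2 fold changes of -1.49 to -1.1, -1.2 to -0.86 and -1.32 to -0.94.

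Fcna was not called at 12 h. Its 12 h libraries held 1813, 1957, 1292 and 1706 CPM, inside the range of the WT libraries apart from replicate 3 (log2 difference -0.22 ± 0.24 SE, adjusted p = 0.524). Without WT replicate 1, the highest, the log2 fold change was 0.02. The low members Mbl1, Mbl2 and Masp2 were not called in HSCs at 12 h (adjusted p 0.189 to 0.587). Their levels there stayed at or below 6.76 CPM.

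Stellate markers and RNA of other cells moved between the same libraries. The summed stellate markers were 52064 to 71460.3 CPM in WT and 38053 to 53298 CPM at 12 h, where replicate 3 had the lowest sum (38053) and the highest sum of hepatocyte markers (444 CPM, against 237 to 344 in WT). Lrat was 2949 ± 412 CPM in WT and 2093 ± 701 at 12 h (SD, n = 4 each). Per Lrat count, Colec10 was 1.34 in WT and 0.737 at 12 h, Colec11 1.44 and 0.951, and Masp1 0.565 and 0.352. At 36 h, with Lrat at 3919 ± 994 CPM, these ratios were 0.675 for Colec10, 1.03 for Colec11 and 0.446 for Masp1, below WT for all 3. Fcna, called at neither time, had 0.685 counts per Lrat count in WT, 0.81 at 12 h and 0.372 at 36 h. The part of the marker changes in these falls was not tested. Without 12 h replicate 3 and 36 h replicate 4 the log2 fold changes at 12 h were -1.10 for Colec10, -0.86 for Colec11 and -0.94 for Masp1, all 3 still called, and -0.57 for Colec12 (adjusted p = 0.081). In a fit of all 36 libraries, which shares 1 spread with cell types where Colec10 and Colec11 are near 0, the falls were as large but not called (adjusted p = 0.132 and 0.199), while Masp1 and Colec12 were.

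**Figure D3:**
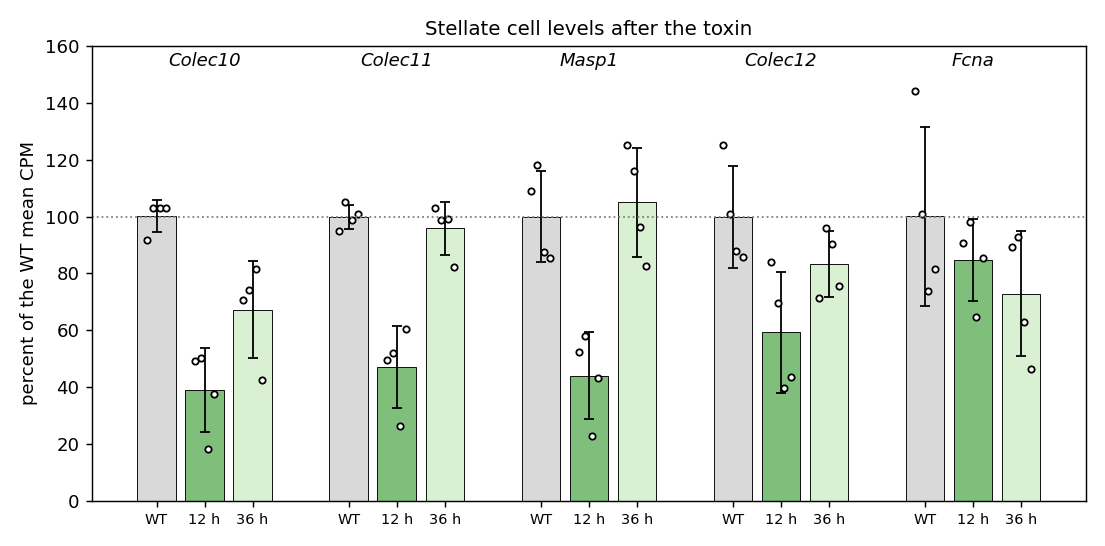
HSC levels of 5 genes as a percentage of each gene's WT mean in CPM (y axis); bars are means, error bars SD over 4 libraries, points are libraries. At 12 h Colec10, Colec11, Masp1 and Colec12 lie below their WT libraries; at 36 h Colec11 and Masp1 are back among them, Colec10 is not, and Fcna overlaps with WT at both times.

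By 36 h the levels of Colec11 and Masp1 in HSCs overlapped with WT again. No member was called against WT, as was the case for all but 0.142% of genes (0.0789% with replicate number as a block). At an unadjusted p under 0.05 the test found 1 member, Colec10, and 868 of all genes, and DESeq2 called no member and 129 genes. Colec11 held 4347, 4177, 4188 and 3474 CPM and Masp1 2069.6, 1932, 1595 and 1371 CPM. Both were close to WT on average, with log2 fold changes of -0.06 ± 0.20 and 0.07 ± 0.24 SE.

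Colec10 held 2779, 2918, 3217 and 1676 CPM at 36 h, and all 4 libraries were below the lowest WT library (log2 difference -0.58 ± 0.27 SE, adjusted p = 0.724). It was the 1 member of 8 without overlap, beside 2.88% of all genes. Replicate 4 was the lowest, and its stellate marker sum was 32717 CPM, against 52808 to 58199 in the other 36 h libraries. Without it the log2 fold change was -0.41. Fcna held 1783, 1850.4, 1257 and 926 CPM, with replicate 4, where Kupffer cell markers summed to 12.8 CPM, again lowest (log2 difference -0.46 ± 0.24 SE, adjusted p = 0.794). Colec12 was at 8.39, 11.3, 10.6 and 8.88 CPM (adjusted p = 0.922). Mbl1, Mbl2 and Masp2 were not called at 36 h (adjusted p 0.917 to 0.995).

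Against 12 h, 3 of the 8 genes rose in HSCs at 36 h, beside 12.9% of all genes. Masp1 rose 2.34-fold (log2 difference 1.23 ± 0.24 SE, adjusted p = 0.00247) and Colec11 2-fold (adjusted p = 0.00247), both without overlap of the groups, as in 13.1% of all genes. Colec10 rose 1.7-fold with overlapping groups (log2 difference 0.76 ± 0.27 SE, adjusted p = 0.0471). That call was lost without 12 h replicate 3 or 4 or 36 h replicate 1, 2 or 3 (adjusted p 0.0623 to 0.125), with replicate number as a block (0.0517) and with only the 2 groups in the fit (0.0957). In the fit of all 36 libraries Masp1 remained called, and Colec10 and Colec11 were not (adjusted p = 0.424 and 0.242). These comparisons share their 12 h libraries with those above. Fcna, Colec12, Mbl1, Mbl2 and Masp2 were not called between the times (adjusted p 0.152 to 0.794); without 12 h replicate 1, Colec12 was (log2 0.68, adjusted p = 0.0348).

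In LSECs, 2 of the 8 genes fell at 12 h, the protease gene Masp1 and the scavenger receptor gene Colec12, and none rose. Of all 12286 genes tested 8.5% fell and 9.74% rose. Masp1 held 208, 234, 185 and 227 CPM, against 307, 326, 270.2 and 284 CPM in WT, without overlap (1 member of 8, beside 11.7% of all genes). It fell 1.37-fold (log2 difference -0.46 ± 0.11 SE, adjusted p = 0.00969). This call remained with each library left out in turn (adjusted p 0.00949 to 0.0311) but not in the fit of all 36 libraries (adjusted p = 0.402).

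Colec12 held 11.7, 15.3, 10.6 and 14 CPM in LSECs at 12 h, overlapping with the WT values of 20.2, 20.3, 13.9 and 17.9 CPM (log2 difference -0.47 ± 0.15 SE, adjusted p = 0.0425). Its call was lost without any of 6 libraries, WT replicates 1, 2 and 4 and 12 h replicates 1, 3 and 4 (adjusted p 0.0566 to 0.12), with no filter (0.0546), with only the 2 groups in the fit (0.0775) and in the fit of all 36 libraries (0.165). Summed endothelial markers were 19238 to 21841 CPM in WT and 13951 to 17379.6 CPM at 12 h. Their part in these falls was not tested.

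At 36 h no member was called against WT in LSECs, and 0% of all genes were. At an unadjusted p under 0.05 the test found 3 of the 8 members, Colec11, Mbl1 and Masp2 (and 1288 of all genes), and DESeq2 called no member and 112 genes. Replicate 4 was the highest 36 h library for all 3, at 27.1, 1.78 and 1.48 CPM. The other 36 h libraries held at most 3.21, 0.363 and 0.679 CPM. Masp1 held 308, 291, 294 and 348 CPM, up 1.43-fold from 12 h (log2 difference 0.51 ± 0.11 SE, adjusted p = 0.0045), the 1 member called there beside 10.6% of genes that rose, and not called in the fit of all 36 libraries (adjusted p = 0.299). Colec12 held 15.4, 16.6, 18.6 and 17.5 CPM. Masp1 and Colec12 were the 2 members whose 36 h libraries all lay above those at 12 h, as in 12.7% of all genes; Colec12 was not called (log2 difference 0.37 ± 0.15 SE, adjusted p = 0.0888) unless 12 h replicate 2 was left out (adjusted p = 0.0492).

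In LSECs at 36 h the levels of Colec10, Colec11 and Fcna rested on replicate 4. Colec11 held 1.16, 3.21, 2.61 and 27.1 CPM, Colec10 0.351, 2.62, 2.04 and 13.4 CPM and Fcna 0.594, 3.82, 1.85 and 15.1 CPM. In replicate 4 all 3 stood far above the other libraries, and so did Lrat (19.6 CPM, against 0.783 to 3.1) and the summed stellate markers (663 CPM, against 330.1 to 385). That library also had the highest Kupffer cell marker sum of the 36 h LSEC libraries (14.8 CPM, against 0.893 to 6.52). Its hepatocyte marker sum was the highest as well (311 CPM, against 44 to 202). The part of each cell type in these levels was not tested. The log2 fold changes against WT were 2.74 ± 0.86 SE for Colec11 (adjusted p = 0.329), 1.82 for Colec10 and 0.88 for Fcna. Without replicate 4 they were 0.87, 0.35 and -0.48. At 12 h the 3 genes were at or under 3.89 CPM in LSECs and were not called (adjusted p 0.664 to 0.758).

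In hepatocytes no change after the toxin was called for any member. Of the 8 genes, Fcna, Colec10 and Colec11 did not pass the filter on low counts, and 0 of the other 5 were called at 12 h or at 36 h. At an unadjusted p under 0.05 edgeR found none of the 5 either, and DESeq2 called none. Of all 11326 genes tested, edgeR called 0% at 12 h and 0% at 36 h (453 and 564 genes at an unadjusted p under 0.05), and DESeq2 called 45 and 60 genes. Fcna, left out of this fit, had 31, 57, 4 and 6 counts in the WT hepatocyte libraries. It had 9 counts in all at 12 h and 4 at 36 h. Kupffer cell markers summed to 16.4, 26.2, 2 and 3.74 CPM in those WT libraries. Their sums were at most 0.55 CPM at 12 h and 1.84 at 36 h. The part of Kupffer cell RNA in the Fcna counts was not tested.

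Mbl2 held 744, 1097, 805 and 826 CPM at 12 h and 884, 897, 716 and 744 CPM at 36 h, around the WT values of 702 to 929. Its log2 fold changes were -0.01 ± 0.16 and -0.09 ± 0.16 SE. For Masp2 they were -0.00 ± 0.21 and -0.04 ± 0.21, for Mbl1 -0.30 ± 0.29 and 0.10 ± 0.29, and for Colec12 0.24 ± 0.21 and 0.08 ± 0.21. Masp1 was the least certain, at 0.23 ± 0.42 and 0.00 ± 0.42. All 5 had an adjusted p of 0.999 or 1 in both comparisons.

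**Figure D4:**
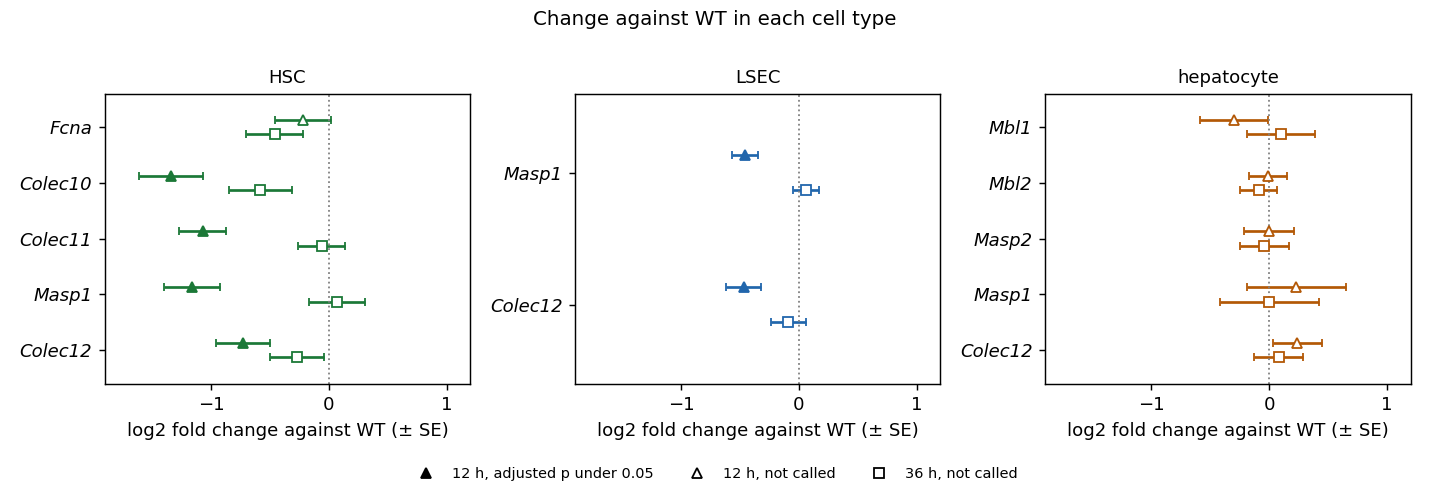
Log2 fold change against WT (x axes, ± SE) for the members named on each axis, in HSCs, LSECs and hepatocytes, at 12 h (triangles) and 36 h (squares); filled symbols have an adjusted p under 0.05. The filled symbols are Colec10, Colec11, Masp1 and Colec12 in HSCs and Masp1 and Colec12 in LSECs, all at 12 h and all below 0.

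The hepatocyte libraries fell into 2 sets that did not follow the toxin. In 5 libraries (WT replicates 1 and 2, 12 h replicate 1, 36 h replicates 1 and 2) the nuclear RNA Malat1 stood at 333 to 678 CPM, and in the other 7 at 35.3 to 66.7 CPM. In the set with more Malat1, Masp1 held 83.5 to 101 CPM, against 215 to 246 in the other set. Masp2 held 181 to 209 CPM against 263 to 324, and Colec12 53.2 to 67 against 94.5 to 101.

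Mbl1 ran the other way, with 236 to 372 CPM in the set with more Malat1 and 149.8 to 203 in the other. Mbl2 overlapped (744 to 929 against 702 to 1097 CPM). So 3 of the 5 hepatocyte members were lower in every library with more Malat1 and Mbl1 was higher, beside 12.8% of all 11326 tested genes that were lower without overlap and 10.4% that were higher. In each hepatocyte group the low and high values of Masp1 fell on opposite sides of this split. The labels give no batch that matches these sets, and their source was not tested. Within the set with less Malat1 the log2 fold changes of the 5 genes ran from -0.17 to 0.18 at 12 h and from -0.15 to 0.10 at 36 h. In the other set they ran from -0.32 to 0.21 at 12 h, where 1 library stood against 2 and was assumed to vary like the rest, and from -0.23 to 0.18 at 36 h, with none called in either set.

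**Figure D5:**
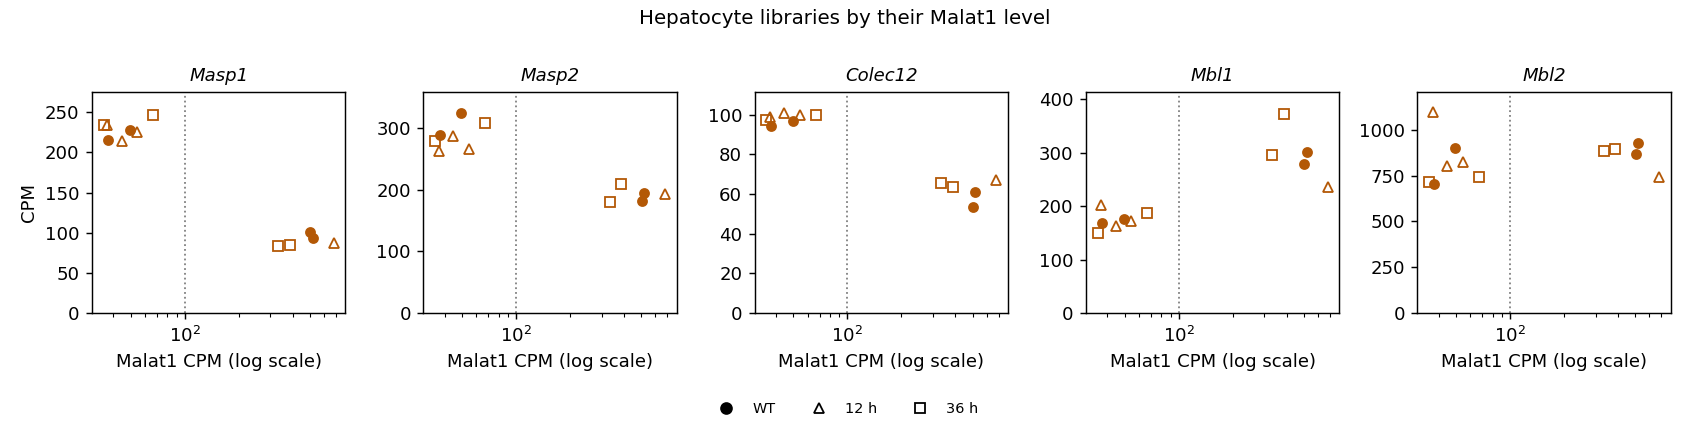
CPM of the 5 members tested in hepatocytes (y axes, from 0) against Malat1 in the same library (x axes, CPM, log scale), filled for WT and open for 12 h (triangles) and 36 h (squares); the dotted line is at 100 CPM of Malat1. Masp1, Masp2 and Colec12 are lower, and Mbl1 higher, in the 5 libraries right of the line, whichever group they belong to.

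The difference between the responses at 12 h was tested in 1 fit of all 36 libraries. Between HSCs and LSECs no member was called, nor did any reach an unadjusted p under 0.05, and DESeq2 called none; 1.62% of all genes were called. The difference for Masp1, which fell in both cell types, was -0.71 ± 0.46 SE on the log2 scale (adjusted p = 0.621), and for Colec12, which also fell in both, -0.27 ± 0.31 (adjusted p = 0.844). For Colec10 and Colec11 it was -1.81 ± 0.94 and -1.68 ± 0.87, with LSEC levels of at most 3.89 CPM behind it.

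Between HSCs and hepatocytes the same 2 genes were called, both with the lower response in HSCs, beside 4.17% of all genes. The difference was -1.44 ± 0.47 SE for Masp1 (adjusted p = 0.0478) and -1.02 ± 0.31 for Colec12 (adjusted p = 0.032). Both are close to the threshold. The hepatocyte side depends on the Malat1 split. In the hepatocyte fit the 12 h changes were 0.23 for Masp1 and 0.24 for Colec12. With a term for Malat1 above 100 CPM they were -0.09 and 0.11. The difference between responses was not tested with that term. At an unadjusted p under 0.05 edgeR found 3 members (3437 of all genes), and DESeq2 called 3 (1840 of all genes). The third in edgeR was Fcna, in the other direction (3.19 ± 1.19 SE, adjusted p = 0.0857). Its hepatocyte side rests on 98 counts in WT and 9 at 12 h. The call of Masp1 was lost in 11 of 16 fits with 1 library left out (every HSC WT replicate, HSC 12 h replicates 3 and 4, hepatocyte WT replicates 1 and 2 and hepatocyte 12 h replicates 2, 3 and 4, adjusted p 0.0549 to 0.125). That of Colec12 was lost in 8 (HSC WT replicate 1, HSC 12 h replicates 3 and 4, hepatocyte WT replicates 1 and 2, hepatocyte 12 h replicates 2, 3 and 4, adjusted p 0.0547 to 0.0961).

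After the toxin most differences between the cell types were called again. At 12 h, 7 of 8 members were called between HSCs and LSECs (50.5% of all genes), 8 between HSCs and hepatocytes (74.8%) and 7 between LSECs and hepatocytes (76.2%). Mbl1 and Masp2 were called between HSCs and LSECs on means of at most 0.807 CPM. Mbl2 was not called between HSCs and LSECs (adjusted p = 0.0672). Between LSECs and hepatocytes it was Masp1, whose LSEC level at 12 h, 208, 234, 185 and 227 CPM, overlapped with that of hepatocytes, 87.2, 234, 215 and 225 CPM (log2 difference 0.18 ± 0.32 SE, adjusted p = 0.62). With libraries scaled by their totals only it was called there too (log2 1.04, adjusted p = 0.0038). Colec10 and Colec11 had no count in the 4 hepatocyte libraries at 12 h, so their HSC levels were at least 43515-fold and 56132-fold higher, taking 3 counts over the group as the floor.

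At 36 h, 5 of 8 members were called between HSCs and LSECs (49.7% of all genes), and all 8 between HSCs and hepatocytes (76.4%) and between LSECs and hepatocytes (77%). The 3 not called were Mbl1, Mbl2 and Masp2, all under 4 CPM in both cell types. Masp1 was again higher in LSECs than in hepatocytes (log2 difference 0.92 ± 0.34 SE, adjusted p = 0.0268), a call lost without LSEC replicate 4 or hepatocyte replicate 1 or 2 (adjusted p 0.0501 to 0.0666).

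Across the 9 groups the order of Masp1 was HSC 36 h (1742 ± 318 CPM) and WT (1658 ± 268), which did not differ beyond their spread, then HSC 12 h (731 ± 254). LSEC 36 h (310.3 ± 26.4) and WT (297 ± 24.7) followed together, then LSEC 12 h (214 ± 21.8) and the 3 hepatocyte groups (159 to 190.0), which did not differ beyond their spread. For Colec12 the 3 hepatocyte groups came first (76.4 to 91.6 CPM), then LSEC WT and 36 h (18 ± 3 and 17 ± 1.35), LSEC 12 h (12.9 ± 2.16) and the HSC groups (6.97 to 11.8). Colec10 ran from HSC WT (3943 ± 213) over HSC 36 h (2647 ± 673) to HSC 12 h (1532 ± 582), and Colec11 from HSC WT (4223 ± 181) and 36 h (4046 ± 389.8) to 12 h (1987 ± 612). The 3 HSC groups of Fcna (1996 ± 629, 1692 ± 286 and 1454 ± 441 for WT, 12 h and 36 h) did not differ beyond their spread. Nor did the hepatocyte groups of Mbl1, Mbl2 and Masp2.

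Genes with the most similar profile were found by the root mean square difference of mean-centred log2(CPM + 1) over the 9 group means, among 10395 genes. For Colec11 they were Lrat (0.197), Colec10 (0.278) and Vipr1 (0.28), and for Colec10 Vipr1 (0.26), Colec11 (0.278) and Igfbp3 (0.28). For Fcna the nearest were farther off: Gucy1a3 (0.447), Gdf10 (0.453) and Tnfrsf11b (0.463). Masp1 had Klhl13 (0.169), P4htm (0.202) and 9930014A18Rik (0.244). Colec12 had Slc2a9 (0.123), Slc35d2 (0.138) and Klc4 (0.154). The hepatocyte members had Tm4sf4 (0.061), Lipc (0.0709) and Hpn (0.0859) for Masp2, Cyp2c67 (0.0982), Timd2 (0.117) and Cldn3 (0.12) for Mbl1, and Cyp3a13 (0.123), Chchd10 (0.127) and Asgr1 (0.146) for Mbl2. These values describe 9 group means and carry no test.

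The other genes of the pathway were taken from a list of 17: relatives of the lectins, substrates, inhibitors, and receptors or binding proteins. In each cell type 11 of the 17 passed the filter on low counts. Fcnb, the second mouse ficolin, had no count in any library. In HSCs 1 of the 11 rose and none fell at 12 h, beside 17% and 15.1% of all genes. This was C3, the central complement protein and the substrate downstream of C4 and C2, from 40.1, 47.7, 37.1 and 38.4 CPM in WT to 102, 67.9, 144 and 90.4 at 12 h, without overlap (log2 difference 1.33 ± 0.18 SE, adjusted p = 0.00022). Replicate 3, with the most C3, also had the highest sum of hepatocyte markers (444 CPM, the other 12 h libraries 238 to 267), and C3 stood at 14173 CPM in WT and 18738 CPM in 12 h hepatocyte libraries. Without that replicate the log2 value was 1.12 (adjusted p = 0.000182). Leaving it out cannot show the part of hepatocyte RNA, because every HSC library held hepatocyte markers (237 to 344 CPM in WT). That part was not tested. At 36 h 2 rose, C3 (89.8 ± 8.62 CPM; log2 difference 1.13 ± 0.18 SE, adjusted p = 0.031) and C2 (404 ± 37.7 CPM in WT and 699 ± 61.6 at 36 h; log2 difference 0.79 ± 0.11 SE, adjusted p = 0.0188), beside 0.134% of all genes that rose. Both 36 h calls were fragile. That of C3 was lost with replicate number as a block (adjusted p = 0.073) and without any 1 library other than 36 h replicate 2 (adjusted p 0.0649 to 0.164), with log2 values of 1.07 to 1.22. That of C2 was lost without WT replicate 1, 3 or 4 or 36 h replicate 1 or 3 (adjusted p 0.0535 to 0.127). In the fit of all 36 libraries neither was called (adjusted p = 0.672 and 0.382).

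The inhibitor gene Serping1, which encodes the C1 inhibitor that also blocks the Masp proteases, was abundant in HSCs and hepatocytes and was not called in either (2561 CPM in HSC WT, 3001 at 12 h and 3555 at 36 h, and 1523 CPM in hepatocyte WT). In LSECs 1 of the 11 rose at 12 h and none fell, beside 9.74% and 8.5% of all genes. This was Cd93, a C-type lectin-like receptor of endothelial cells, from 307, 375, 288 and 367 to 831, 767, 1075 and 769 CPM (log2 difference 1.38 ± 0.15 SE, adjusted p = 0.00019). At 36 h edgeR called none of the 11 against WT (6 had an unadjusted p under 0.05, as did 1288 of all 12286 genes), and Cd93 was at 325 ± 56.4 CPM. Against 12 h, C2 (log2 0.91, adjusted p = 0.00242), Cfi, which encodes a protease that degrades C3b and C4b (1.01, adjusted p = 0.00904), and Serping1 (1.84, adjusted p = 0.0427) rose in LSECs at 36 h. Cd93 fell (-1.43, adjusted p = 0.000131). Of all genes 10.6% rose in this comparison, and 21.3% were called in either direction. Serping1 stood at 36.5 CPM in replicate 4, the library with the most Lrat; without it the log2 value was 0.52 (adjusted p = 0.266), and the call was also lost without any 1 of the 12 h libraries (adjusted p 0.0621 to 0.104). Cfi was low in LSECs, at 2.79 CPM at 12 h and 5.74 CPM at 36 h, beside 1531 CPM in hepatocytes at 36 h. The part of hepatocyte RNA in its LSEC counts was not tested. In hepatocytes edgeR called 0 of the 11 at either time, with 0 at an unadjusted p under 0.05. DESeq2 was not counted over this list. C4a and C4b are near-identical copies, so how reads were split between them is uncertain, and C4b (841 CPM in HSC WT and 2042 in hepatocyte WT) was called at no time against WT. C4b, Fcnb and the HSC and hepatocyte values of Serping1 were chosen for mention after their values were seen.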

How the data were processed

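RNA-seq of HSCs, LSECs and hepatocytes was analysed in 36 libraries (9 groups of 4). The deposited files hold whole read counts per gene made by the authors, 1 file per library, not normalized. Per the submitters' processing notes reads were checked with FastQC 0.11.4, trimmed with Trimmomatic 0.35, mapped to mm10 with TopHat2 2.1.0 and handled with SAMtools 0.1.18. For the counting tool, annotation and strand setting: not given in the sources used here. The 5 lines on uncounted reads (4.9 to 9.02% in no gene, 0.887 to 1.51% ambiguous) were left out of totals. Of 54 pairs of libraries within groups none was identical.

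Counts were tested with edgeR 4.0.16 in R 4.3.3 (glmQLFit, glmQLFTest, TMM scaling, filterByExpr with minimum count 10 and total 15, Benjamini-Hochberg adjustment over all genes tested). Times were compared in 1 fit per cell type (3 groups), cell types in 1 fit per condition, and response differences used all 36 libraries. SE is the log2 fold change divided by the square root of F. The test was tried on simulated data. Floors (3 counts over a group) cover counting error only, and the labels name no molecular identifiers.

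By rule all 8 members are reported, with up to 4 called genes of the pathway list per cell type and the 3 most similar genes for each member. The members, gene lists, marker lists and the Malat1 split were chosen with earlier results of these data known. The alternatives were RLE scaling, none, no filter, DESeq2 1.42.0, other sets of libraries in the fit, replicate number as a block, a Malat1 term, and leaving libraries out. The fits within each Malat1 set were added after seeing the data. Replicate numbers are in the labels, which do not say what they mark. Same-numbered libraries deviated together (every correlation over 0.1) for HSC 36 h and WT (0.14 to 0.292), hepatocyte 36 h and WT (0.488 to 0.625), and HSC and LSEC in WT (0.136 to 0.443), at 12 h (0.236 to 0.515) and at 36 h (0.166 to 0.287), but not for the other comparisons.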

Additional observations from a re-analysis of the deposited data

Results flagged for a closer look

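Of 69 groups of 4 libraries in which a member had counts, 9 held 1 library far from the others by Dixon's test, which flags about 1 in 20 by chance. The cause of these was not tested. In hepatocytes at 12 h, replicate 1 was low for Masp1 (87.2 CPM, the others 215 to 234) and for Colec12 (67 CPM, the others 99.1 to 101); it is the 12 h library with Malat1 above 100 CPM. In LSECs at 36 h, replicate 4 was high for Colec11 (27.1 CPM, the others 1.16 to 3.21) and for Mbl1 (1.78 CPM, the others 0.243 to 0.363), and it also had the highest sums of stellate (663 CPM) and hepatocyte markers (311 CPM). Colec11 was low in LSEC WT replicate 1 (0.896 CPM, the others 1.35 to 1.44). Colec10 was low in HSC WT replicate 1 (3623 CPM, the others 4041 to 4059.8). The remaining 3 rest on a few counts in 1 hepatocyte library: Fcna at 36 h in replicate 3 (0.227 CPM), Colec10 in WT replicate 3 (0.228 CPM) and Colec11 in WT replicate 2 (0.192 CPM), with the other 3 libraries at 0.

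The 12 h responses of HSCs and hepatocytes differed by -1.44 on the log2 scale for Masp1 and by -1.02 for Colec12, tested as a difference in 1 fit. Hepatocyte libraries on both sides of the Malat1 split enter these values, and 1 of the 4 at 12 h but 2 of the 4 in WT lay above it. Both genes were lower in every hepatocyte library above the split.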

How the results depend on the processing

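Over 97 named results, 631 of 672 values under other settings kept direction and side of the threshold, 20 lost the call, 1 gained it and 20 changed sign; with 1 library left out these were 725, 64, 2 and 41 of 832. Fewer libraries, or 1 spread shared by all cell types, is part of some settings; otherwise the cause was not tested. Members called under the fit of all 36 libraries were 2 for HSC 12 h, 1 for HSC 36 h against 12 h and 0 for LSEC 12 h. LSEC 12 h had 1 with no filter and 1 with only the 2 groups compared. The response difference of HSCs and hepatocytes had 1 with the replicate block, where Masp1 was -1.43 (adjusted p = 0.052); Colec10 in HSCs at 36 h against 12 h was 0.79 with the block (adjusted p = 0.0517). Of the other named genes C3 at HSC 36 h lost its call with the block, as did Serping1 at LSEC 36 h against 12 h (1.41, adjusted p = 0.157). The block changed no other call among the named results. The percentage of all genes called at HSC 36 h was 1.02 with DESeq2, 0.0789 with the replicate block and 0.361 with the 2 groups. For LSEC 12 h lower and higher together it was 11.8 with no filter and 10.4 with 36 libraries. For LSEC 36 h it was 0.949 (DESeq2), 0.0407 (block), 0.0166 (2 groups) and 0.241 (36 libraries), and for LSEC 36 h against 12 h 14.1 (no filter) and 13.4 (36 libraries). At hepatocyte 12 h it was 0.397 (DESeq2), 0.00883 (block), 0.0177 (Malat1 term), 0.0528 (Malat1 below 100 CPM), 0.0337 (above) and 0.22 (36 libraries), and at 36 h 0.53, 0.0441, 0.0883, 0.088, 0.168 and 0.34 in that order. For the response difference of HSCs and LSECs DESeq2 gave 3.34.

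None of the values whose sign changed under another setting was called. Colec11 at HSC 36 h was 0.01 without 12 h replicate 3 and 36 h replicate 4. At hepatocyte 12 h Mbl1 (reported as -0.30) was 0.05 (below 100 CPM of Malat1), Mbl2 0.01 (no scaling), 0.04 (Malat1 term), 0.18 (below) and 0.03 (36 libraries), Masp1 (reported as 0.23) -0.09 (term) and -0.19 (above), and Masp2 0.02 (block), 0.03 (no scaling), 0.00 (no filter), 0.00 (above) and 0.03 (36 libraries). At hepatocyte 36 h Mbl1 was -0.05 (below), Masp1 -0.06 (block), -0.00 (no filter), -0.01 (2 groups), -0.07 (term) and -0.23 (above), and Masp2 0.03 (above).

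With 1 library left out, log2 values ran as follows. In HSCs they were -0.33 to 0.02 for Fcna at 12 h, -0.08 to 0.2 (Mbl2), -0.02 to 0.16 (Masp1) and -0.41 to 0.1 (Masp2) at 36 h, and -0.06 to 0.32 (Mbl1) and -0.03 to 0.49 (Masp2) between the times. In LSECs they were -0.06 to 0.84 (Colec10) and -0.01 to 0.93 (Colec11) at 12 h, -0.01 to 0.1 (Masp1) and -0.48 to 1.24 (Fcna) at 36 h. In hepatocytes they were -0.13 to 0.06 (Mbl2) and -0.11 to 0.14 (Masp2) at 12 h, and -0.05 to 0.2 (Colec12), -0.16 to 0.28 (Mbl1), -0.25 to 0.21 (Masp1) and -0.15 to 0.1 (Masp2) at 36 h. Masp1 between LSECs and hepatocytes at 12 h was -0.06 to 0.29, and the HSC and LSEC response difference of Fcna 0 to 0.58. Percentages of genes called ran 0.0156 to 0.257 at HSC 36 h, 0 to 0.00807 at LSEC 36 h and 4.82 to 10.4 for the HSC and hepatocyte response difference. Members called were 1 to 2 at LSEC 12 h, 1 to 2 at LSEC 36 h against 12 h, and 0 to 2 for the response difference. Leaving out libraries was not run for responses at 36 h, which are not reported. Depth limits Colec10 and Colec11 in hepatocytes (at most 4 counts per group) most, then Fcna there (4 to 98 counts per group) and Mbl1, Mbl2 and Masp2 in HSCs and LSECs (24 to 407 counts per group).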
